A study of Mus musculus with 9 samples.

Results

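The Slc25 genes encode the mitochondrial carriers, and the symbols that begin with Slc25a and a number were taken from the gene names of the deposited expression table. The rule found 47 genes among 27095 loci. Slc25a47 shares its locus with the microRNA gene Mir345, and the others each have a locus of their own name. RNA was sequenced from 9 wild-type mouse fetuses of gestational day 17, labelled C57BL/6 and given as C57BL/6J in the methods, in 3 groups of 3 fetuses. The control fetuses came from dams given lactated Ringer's solution by intraperitoneal injection on gestational day 7. On that day the other dams received EtOH at 2.9 g/kg, and their fetuses were sorted by defects. Fetuses with ocular and cortical patterning defects form the EtOH affected group, and fetuses without them the EtOH unaffected group. The sample labels name fetal brain as the tissue, whereas the methods name the cortex.

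Mitochondrial carriers are a family of membrane proteins, nearly all of the inner mitochondrial membrane, that exchange nucleotides, phosphate, keto acids, amino acids and cofactors between the matrix and the cytosol. Each carrier is built from repeats of a similar stretch of transmembrane helices and is encoded in the nucleus, so it has to be imported and inserted by chaperones of the intermembrane space. In neurons the family supplies ATP to the cytosol, feeds the respiratory chain through the malate-aspartate shuttle and moves glutamate into the matrix.

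The table holds 1 value per group and locus in FPKM, the number of fragments per kilobase of exon, scaled to the mapped fragments of the library. This value stands for the 3 fetuses of a group, so no error between fetuses is given here, no test was made, and the depth of single libraries is unknown. Every difference below is the log2 ratio of 2 group values after 0.1 FPKM was added to each, and it describes these libraries. The 3 comparisons share their groups, so they are not independent of one another. All 10 markers of cortical projection neurons and progenitors had a mean FPKM of at least 1, and their summed level was 982 FPKM in control, 885 in EtOH unaffected and 1142 in EtOH affected. The 5 markers of cerebellum and hindbrain summed to at most 0.0845 FPKM in any group, and Hoxb2 was listed at 0 in all groups. Markers of other parts of the brain were present. The 6 of choroid plexus summed to 990, 1315 and 1106 FPKM in the 3 groups. The 7 of ventral telencephalon summed to 167, 194 and 180 FPKM, and the 4 of thalamus to 30.6, 36.2 and 24.3 FPKM. The groups also differed in sex-linked genes. Xist, the RNA of the inactive X chromosome, was at 9.24 FPKM in control, 0.02 in EtOH unaffected and 10.34 in EtOH affected, whereas the Y-linked Eif2s3y was at 6.56, 21.01 and 0.04 FPKM. Control thus held both, EtOH unaffected hardly any Xist and EtOH affected hardly any Y-linked RNA. Sex and group therefore coincide in EtOH affected against EtOH unaffected, and overlap in part in the comparisons with control. The sex of the fetuses and their group cannot be told apart in these values.

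Of the 47 genes, 37 had a mean FPKM over the 3 groups of at least 1, 21 of at least 10, and 3 of at least 100. The summed level of the family was 1593 FPKM in control, 1680 in EtOH unaffected and 1430 in EtOH affected. Slc25a4, Slc25a5 and Slc25a3, the carriers of ADP, ATP and phosphate, made up 65.1% of this sum in control, 65.8% in EtOH unaffected and 62.4% in EtOH affected. Their joint level was 1037, 1106 and 892 FPKM, a log2 difference of -0.22 between EtOH affected and control and of -0.31 between EtOH affected and EtOH unaffected. The other 44 genes summed to 556, 574 and 537 FPKM, with log2 differences of -0.05 and -0.10. The lower family sum in EtOH affected fetuses thus lay mostly in these 3 abundant genes. The 10 genes with a mean FPKM below 1 were Slc25a45, Slc25a35, Slc25a2, Slc25a34, Slc25a43, Slc25a21, Slc25a31, Slc25a54, Slc25a41 and Slc25a48, and the highest of them, Slc25a45, had a mean of 0.52 FPKM.

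**Figure D1:**
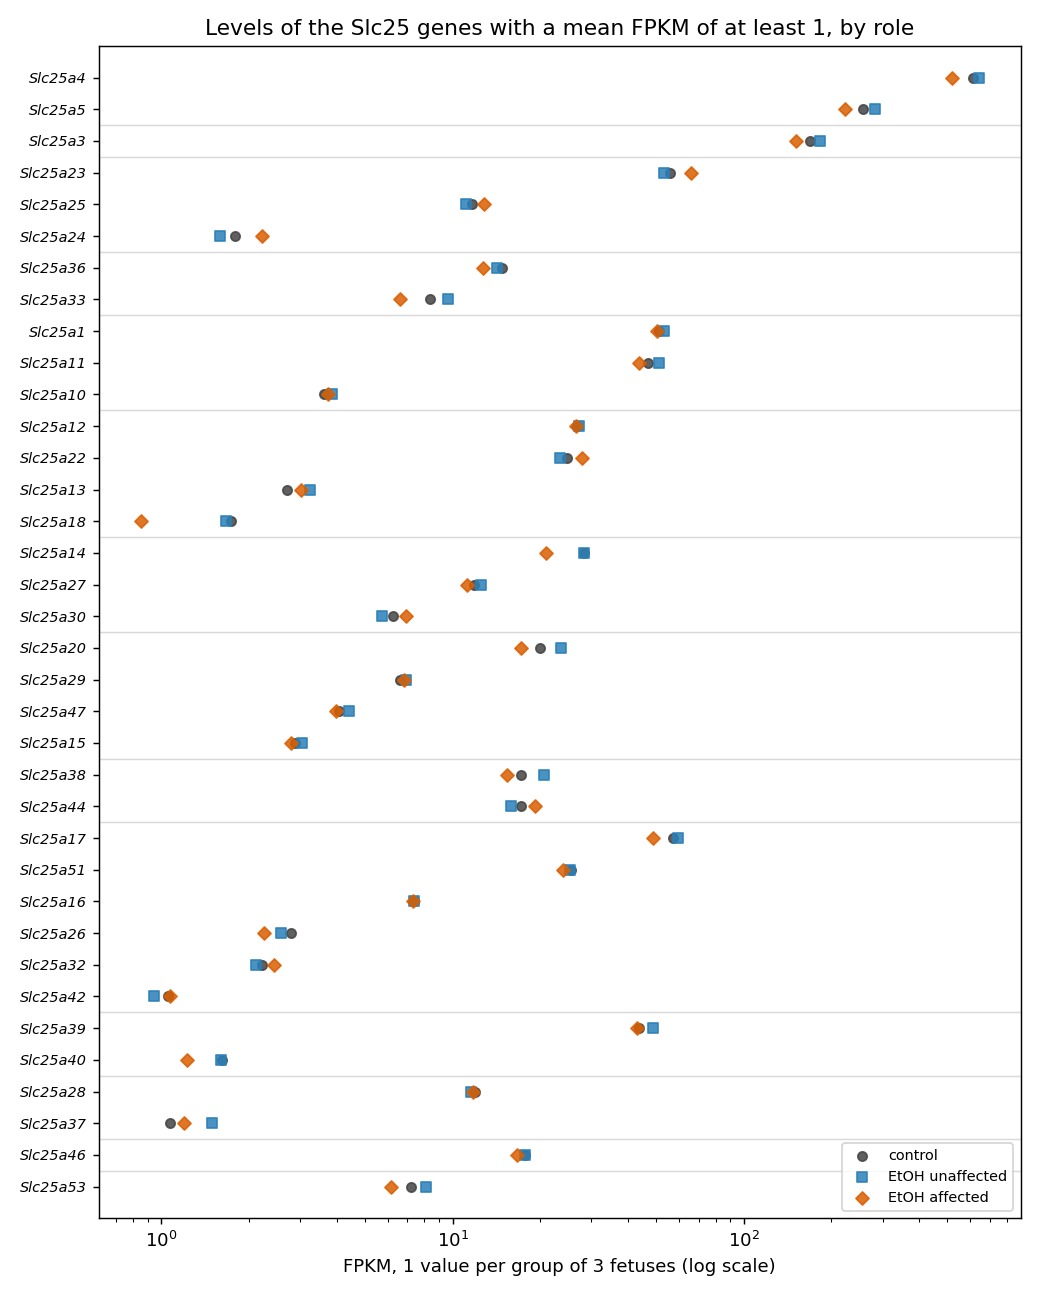
FPKM of 36 Slc25 genes with a mean FPKM of at least 1 (horizontal, log scale), with circles for control, squares for EtOH unaffected and diamonds for EtOH affected, 1 value per group of 3 fetuses. Grey lines separate roles in the order of the text, and Slc25a18 at 1.73, 1.67 and 0.85 FPKM is the gene whose groups lie farthest apart.

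A gene was counted as lower or higher where a log2 difference reached the equivalent of 1.3-fold, which is 0.38, and its mean FPKM was at least 1. In EtOH affected against control fetuses, 2 of 37 members (5.41%), Slc25a14 and Slc25a18, were lower by this limit, beside 8.33% of all 15535 loci with the same minimum. No member was higher, beside 8.57% of all loci. In EtOH affected against EtOH unaffected fetuses, 6 of 37 (16.2%) were lower, beside 14.3% of all loci. These were Slc25a14, Slc25a18, Slc25a20, Slc25a33, Slc25a38 and Slc25a53. Slc25a24 alone was higher, 1 of 37 members (2.70%) beside 16.3% of all loci. In EtOH unaffected against control fetuses, no member was lower, beside 5.36% of all loci, and Slc25a37 alone was higher, again 1 of 37 members, beside 4.39%. As 1 gene is 2.70% of the 37 members, the share of lower members lay near that of all loci in all 3 comparisons. No difference of the family from all loci is read from it. The share of higher members was below that of all loci in both comparisons of the EtOH affected group. Of the members nearest the limit, Slc25a53 lay just inside it at -0.39 in EtOH affected against EtOH unaffected, and Slc25a40 lay just outside at -0.36. Slc25a40 was also just outside at -0.37 in EtOH affected against control, and it passes in both comparisons where no 0.1 FPKM is added.

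The median log2 difference of the 37 members was -0.05 in EtOH affected against control, where the median of all loci was 0.02. It was -0.14 against EtOH unaffected fetuses, where that of all loci was 0.01, and 0.05 in EtOH unaffected against control, where that of all loci was also 0.01. Values below 0 were found in 25 members (67.6%) against control and in 28 (75.7%) against EtOH unaffected, beside 47.04% and 48.7% of all loci. Among the 3 groups, EtOH affected had the lowest value in 24 members (64.9%; 40.7% of all loci), and EtOH unaffected had the highest in 20 (54.1%; 39.0% of all loci). The median was lower among abundant members, as it was among abundant loci in general. The 21 members at or above a mean of 10 FPKM had a median of -0.10 against control and of -0.17 against EtOH unaffected, where the 7072 loci of that level had -0.01 and -0.04. The 16 members between 1 and 10 FPKM had a median of -0.0013 against control, with 8 of 16 below 0, and of -0.11 against EtOH unaffected, where the 8463 loci of that level had 0.05 and 0.06. For the 3 members above 100 FPKM the medians were -0.21 and -0.31, and for the 997 loci above that level they were -0.17 and -0.29.

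**Figure D2:**
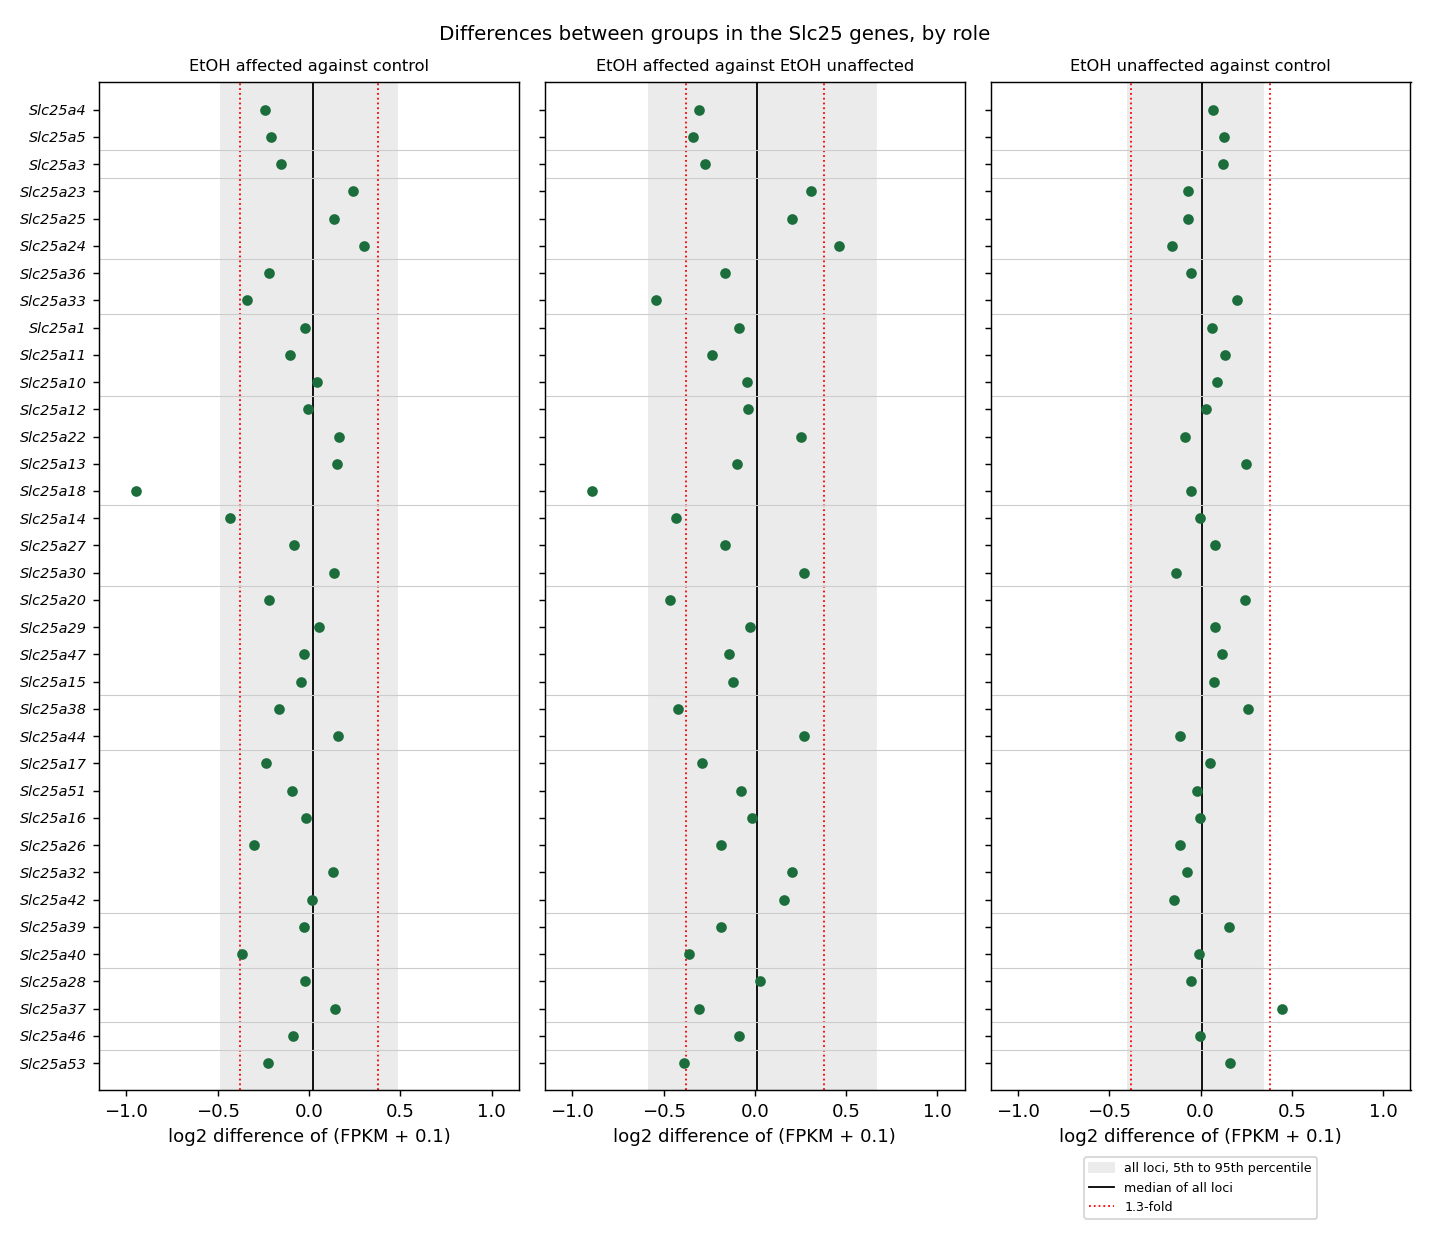
Log2 differences of (FPKM + 0.1) of 36 Slc25 genes (horizontal, 1 point per gene) in the 3 comparisons, with the median of all loci as a black line, their 5th to 95th percentile in grey and the 1.3-fold limits dotted. Most points lie left of the black line in both comparisons of the EtOH affected group, and Slc25a18 lies at -0.95 and -0.89.

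Slc25a4 and Slc25a5 exchange cytosolic ADP for matrix ATP and are the carriers on which ATP export depends. Slc25a4 (chromosome 8, 46206797 to 46211284, minus strand, mm10) was the most abundant member, at 612 FPKM in control, 641 in EtOH unaffected and 518 in EtOH affected. Slc25a5 (chromosome X, 36795651 to 36798807, plus strand) was at 257, 281 and 223 FPKM. EtOH affected was lowest and EtOH unaffected highest in both genes, and neither reached the 1.3-fold limit. The log2 difference was -0.24 for Slc25a4 and -0.21 for Slc25a5 against control, and -0.31 and -0.34 against EtOH unaffected. The ratio of Slc25a4 to Slc25a5 was 2.38, 2.28 and 2.33 in the 3 groups, so the proportion of the 2 genes varied less than the level of either. In the longest coding transcript of Slc25a5, 46.6% of the 50-base stretches also occur in transcripts of 9 other annotated genes, among them Slc25a5-ps, so its value is uncertain. Slc25a4 shares none. Slc25a31, the carrier of the same exchange in male germ cells, was at 0.02, 0.01 and 0.03 FPKM.

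Slc25a3 brings the phosphate for ATP synthesis into the matrix and also carries copper for cytochrome oxidase. It lies on chromosome 10 from 91116574 to 91124059 on the minus strand and was at 168, 183 and 151 FPKM in control, EtOH unaffected and EtOH affected. Its differences of -0.15 and -0.28 had the order of the ADP/ATP carriers. The ratio of Slc25a4 to Slc25a3 was 3.64, 3.50 and 3.42.

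The calcium-regulated ATP-Mg/phosphate carriers, which adjust the adenine nucleotide content of the matrix, had the opposite order. Slc25a23 was at 55.8 FPKM in control, 53.3 in EtOH unaffected and 65.9 in EtOH affected. Slc25a25 was at 11.7, 11.1 and 12.8 FPKM. Slc25a24 (chromosome 3, 109123149 to 109168457, plus strand) was at 1.78, 1.59 and 2.22 FPKM. In all 3 genes EtOH affected was highest and EtOH unaffected lowest, with log2 differences of 0.24, 0.13 and 0.30 against control and 0.31, 0.20 and 0.46 against EtOH unaffected. Their summed level with Slc25a41, which was at most 0.02 FPKM in any group, was 69.3, 66.0 and 81.0 FPKM. This was the role with the largest positive difference of sums, 0.23 against control and 0.30 against EtOH unaffected. The ratio of Slc25a23 to Slc25a25 was 4.78, 4.79 and 5.14.

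The pyrimidine nucleotide carriers Slc25a36 and Slc25a33 supply nucleotides for the synthesis of mitochondrial DNA and RNA. Slc25a33 (chromosome 4, 149744036 to 149774277, minus strand) was at 8.39 FPKM in control, 9.64 in EtOH unaffected and 6.60 in EtOH affected. Its difference of -0.54 against EtOH unaffected was the second lowest of all members in that comparison, and the difference against control was -0.34. The annotated gene Gm13068 overlaps 14.9% of its exon bases, so part of its reads may belong elsewhere. Slc25a36 was at 14.8, 14.2 and 12.7 FPKM. The ratio of Slc25a36 to Slc25a33 was 1.76, 1.48 and 1.92.

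Among the carriers of citrate and keto acids, Slc25a1, the citrate carrier that provides carbon for fatty acid synthesis, was at 51.1, 53.4 and 50.3 FPKM. Slc25a11, the oxoglutarate and malate carrier of the malate-aspartate shuttle, was at 46.8, 51.3 and 43.5 FPKM. The dicarboxylate carrier Slc25a10 was at 3.62, 3.86 and 3.74 FPKM, and Slc25a21 at 0.04 to 0.07 FPKM. Differences in this role stayed within -0.24 and 0.13 in every comparison among the 3 genes above 1 FPKM.

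Slc25a12 and Slc25a13 carry aspartate out of the matrix in exchange for glutamate and complete the malate-aspartate shuttle. Slc25a12, the form of neurons, was at 26.7, 27.3 and 26.6 FPKM and hardly differed between the groups, with differences of -0.01 and -0.04 for EtOH affected. Slc25a13 was at 2.71, 3.24 and 3.02 FPKM. The ratio of Slc25a12 to Slc25a13 was 9.86, 8.42 and 8.79.

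Slc25a22 and Slc25a18 carry glutamate into the matrix and were the pair whose values differed most between the groups. Slc25a18 (chromosome 6, 120773578 to 120794336, plus strand) was at 1.73 FPKM in control, 1.67 in EtOH unaffected and 0.85 in EtOH affected. Control and EtOH unaffected were close together and EtOH affected lay below both, by -0.95 and -0.89 on the log2 scale, the lowest value of any of the 37 members in both comparisons. It was also the only member past a 1.5-fold limit. Slc25a22 was at 24.8, 23.3 and 27.8 FPKM, highest in EtOH affected. The ratio of Slc25a22 to Slc25a18 was 14.3 in control, 14.0 in EtOH unaffected and 32.7 in EtOH affected. Slc25a18 is known as the glutamate carrier of astrocytes. The summed level of 5 markers of astrocytes and radial glia was 2116 FPKM in control, 2254 in EtOH unaffected and 1435 in EtOH affected, and Fabp7, at 2015, 2151 and 1352 FPKM, made up most of it. Fabp7 and Gfap were lower than control by the 1.3-fold limit (-0.58 and -0.67), of which Fabp7 was within it at -0.29 once a trend with transcript length was removed, and Slc1a3 was at 79.7, 83.1 and 62.9 FPKM (-0.34 against control and -0.40 against EtOH unaffected, and -0.41 and -0.50 without that trend). Aldh1l1 was at 17.7, 17.0 and 17.0 FPKM, and Aqp4, at 1.07, 0.84 and 1.154 FPKM, was higher than in EtOH unaffected by the limit (0.41, and 0.21 without that trend). Fewer cells of a type and less RNA per cell cannot be told apart in these values, and the part of glial content in Slc25a18 was not tested.

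The uncoupling-protein relatives of brain, Slc25a14, Slc25a27 and Slc25a30, carry small anions and protons. Slc25a14 (chromosome X, 48623413 to 48662294, plus strand) was at 28.4 FPKM in control, 28.3 in EtOH unaffected and 20.95 in EtOH affected. Its level was nearly equal in control and EtOH unaffected and lower in EtOH affected by -0.44 and -0.43, which made it the only member with a mean FPKM of at least 10 past the limit in both comparisons. Without the trend with transcript length, Slc25a14 was at -0.31 and -0.23, within the limit. Slc25a27 was at 11.9, 12.5 and 11.2 FPKM, and Slc25a30 at 6.26, 5.70 and 6.90 FPKM. The ratio of Slc25a30 to Slc25a14 was 0.221, 0.202 and 0.329, so Slc25a14 lay nearer to its relatives in EtOH affected fetuses.

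**Figure D3:**
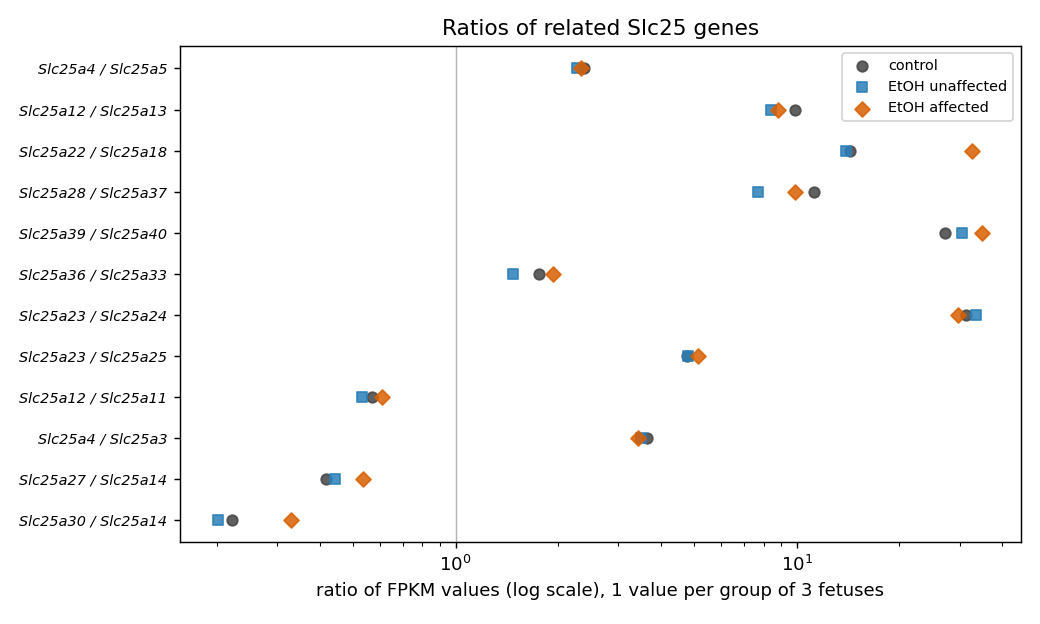
Ratios of the FPKM values of related Slc25 genes (horizontal, log scale), with circles for control, squares for EtOH unaffected and diamonds for EtOH affected. The ratio of Slc25a22 to Slc25a18 stands apart in EtOH affected at 32.7, and that of Slc25a4 to Slc25a5 stays between 2.28 and 2.38.

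Slc25a20 brings acylcarnitine into the matrix for fatty acid oxidation. It lies on chromosome 9 from 108662088 to 108684641 on the plus strand and was at 19.95 FPKM in control, 23.6 in EtOH unaffected and 17.1 in EtOH affected. EtOH unaffected was highest, so the difference was -0.46 against that group and -0.22 against control. The ornithine carrier Slc25a15 was at 2.88, 3.04 and 2.79 FPKM, the basic amino acid carrier Slc25a29 at 6.57, 6.94 and 6.82 FPKM, and Slc25a47 at 4.07, 4.41 and 3.99 FPKM. Slc25a45, Slc25a2 and Slc25a48, the others of this role, were below 1 FPKM.

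Slc25a38 provides mitochondrial glycine for the first step of heme synthesis, and Slc25a44 carries branched-chain amino acids. Slc25a38 (chromosome 9, 120110374 to 120124504, plus strand) was at 17.2, 20.6 and 15.3 FPKM, with differences of -0.42 against EtOH unaffected and -0.16 against control. Slc25a44 had the opposite order, at 17.2, 15.9 and 19.2 FPKM, with differences of 0.27 and 0.16.

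The promoters of the members lower by the limit are shown for the 2 genes lower than both other groups and for the 2 genes in which a searched motif was found. Promoter windows from RefSeq (GRCm38.p6) were matched by symbol for 36 of the 47 members, and the 250 bases before the annotated start were searched on both strands. The letters searched were GCGCNTGCG for the NRF1 element, CCGGAAG for the core of ETS factors and AAGGTCA for the ERR element, all known from promoters of mitochondrial genes, and matches of different motifs overlapped in 0 of the windows. CCGGAAG was found in 6 of 36 members (16.7%; 6.91% of 32851 windows), in Slc25a3, Slc25a4, Slc25a17, Slc25a20, Slc25a38 and Slc25a54. GCGCNTGCG was found in 2 of 36 members (5.56%; 5.19% of all) and AAGGTCA in 1 of 36 (2.78%; 4.08% of all). Of the 6 members lower in EtOH affected against EtOH unaffected, 2 held CCGGAAG, 79 bases before the start in Slc25a20 and 46 bases before it in Slc25a38. These letters are in capitals in the windows of Slc25a20 (chr9:108661886-108662135) and Slc25a38 (chr9:120110132-120110381), and the windows of Slc25a18 (chr6:120773518-120773767) and Slc25a14 (chrX:48623198-48623447) hold none of the motifs. All 4 are on the plus strand and written 5′ to 3′. A match is a description of the sequence and not of binding.
Slc25a18: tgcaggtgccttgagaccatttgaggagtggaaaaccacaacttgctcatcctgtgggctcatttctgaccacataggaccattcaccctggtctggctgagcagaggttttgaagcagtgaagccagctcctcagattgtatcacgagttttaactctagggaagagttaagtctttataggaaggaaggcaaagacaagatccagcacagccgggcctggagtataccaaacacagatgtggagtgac
Slc25a14: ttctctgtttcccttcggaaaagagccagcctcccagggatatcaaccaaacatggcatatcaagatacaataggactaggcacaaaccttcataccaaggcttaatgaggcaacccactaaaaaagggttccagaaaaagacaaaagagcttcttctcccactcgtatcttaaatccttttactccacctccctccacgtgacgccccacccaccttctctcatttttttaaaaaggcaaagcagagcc
Slc25a20: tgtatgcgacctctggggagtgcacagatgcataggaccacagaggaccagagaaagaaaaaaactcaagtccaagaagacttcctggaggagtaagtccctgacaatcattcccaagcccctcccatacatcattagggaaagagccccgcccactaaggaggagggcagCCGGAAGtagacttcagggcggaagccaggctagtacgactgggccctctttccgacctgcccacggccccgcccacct
Slc25a38: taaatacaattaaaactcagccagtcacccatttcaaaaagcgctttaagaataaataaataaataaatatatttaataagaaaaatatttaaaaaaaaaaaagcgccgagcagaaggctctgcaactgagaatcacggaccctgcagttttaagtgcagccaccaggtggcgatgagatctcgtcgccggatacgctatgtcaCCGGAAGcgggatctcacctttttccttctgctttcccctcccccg

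Cofactor carriers were the largest role among measured members, with 7 of 7 genes above 1 FPKM, and 5 of 7 were below 0 against control and against EtOH unaffected. Slc25a17, a carrier of coenzyme A and nucleotides in the peroxisomal membrane, was at 57.4 FPKM in control, 59.5 in EtOH unaffected and 48.7 in EtOH affected (-0.24 and -0.29). The NAD carrier Slc25a51 was at 25.5, 25.2 and 23.9 FPKM. Slc25a16, a relative of coenzyme A carriers, had nearly the same value in all groups, 7.37, 7.36 and 7.28 FPKM. The S-adenosylmethionine carrier Slc25a26 was at 2.79, 2.57 and 2.25 FPKM (-0.30 against control). The folate and FAD carrier Slc25a32 was at 2.22, 2.11 and 2.44 FPKM, and the coenzyme A carrier Slc25a42 at 1.06, 0.94 and 1.07 FPKM, both highest in EtOH affected.

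Slc25a39 and Slc25a40 bring glutathione, the main thiol antioxidant, into the matrix. Slc25a39 was at 43.8, 48.8 and 42.9 FPKM and Slc25a40 at 1.61, 1.60 and 1.23 FPKM, so their ratio was 27.1, 30.5 and 35.0. The mitoferrins Slc25a28 and Slc25a37 carry iron for heme and iron-sulfur clusters, and Slc25a37 is the form of red cell precursors. Slc25a28 was at 11.98, 11.5 and 11.8 FPKM. Slc25a37 (chromosome 14, 69241848 to 69285112, minus strand) was at 1.07 FPKM in control, 1.496 in EtOH unaffected and 1.19 in EtOH affected. It was highest in EtOH unaffected, by 0.45 over control, and the difference of EtOH affected was 0.14 against control and -0.30 against EtOH unaffected. The 5 blood loci found, which include the globin loci, summed to 5614 FPKM in control, 7257 in EtOH unaffected and 3486 in EtOH affected. Alas2, the first enzyme of heme synthesis in red cell precursors, was at 18.9, 25.2 and 17.8 FPKM, and Slc4a1, their anion exchanger, at 0.60, 1.46 and 0.65 FPKM. EtOH unaffected was highest in all 5 loci. It was also highest in 20 of the 37 members (54.1%), Slc25a37 among them, and in 39.0% of all loci. The part of blood content was not tested.

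Slc25a46, a member of the outer membrane that takes part in the shaping of mitochondria, was at 17.8, 17.7 and 16.7 FPKM. Slc25a53, a less characterised member, lies on chromosome X from 136981116 to 137038302 on the minus strand and was at 7.20, 8.07 and 6.14 FPKM, with differences of -0.23 against control and -0.39 against EtOH unaffected. In all, 4 members are X-linked, of which Slc25a5, Slc25a14 and Slc25a53 had a mean FPKM of at least 1 and Slc25a43 was at 0.07, 0.08 and 0.14 FPKM. Those 3 were lowest in EtOH affected, as were 24 of all 37 members (64.9%) and 40.7% of all loci. EtOH affected is the group in which Y-linked genes were nearly absent and Xist was highest, at 10.34 FPKM beside 9.24 in control. The part of sex in the differences of these 3 genes was not tested.

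Differences of the members went with the length of their transcripts, as those of all loci did, except among the longest members. Length is that of the longest coding transcript of a gene in GENCODE M21, and it was found for all 37 members and for 12530 of 12654 loci with a gene name (99.0%). Spearman's rho of the log2 difference with length was 0.46 over the 37 members in EtOH affected against control and 0.51 against EtOH unaffected, and it was -0.43 in EtOH unaffected against control. Over the 12530 loci it was 0.54, 0.62 and -0.51. The points of each comparison share the same libraries, so these correlations are descriptions. The 16 members of 1000 to 2000 nt had a median of -0.19 against control and of -0.28 against EtOH unaffected, beside -0.16 and -0.26 for the 2348 loci of that length. The 13 members of 3000 to 5000 nt had medians of 0.13 and -0.02, beside 0.07 and 0.08 for 3993 loci. The 3 members of 5000 nt or more, Slc25a12, Slc25a32 and Slc25a36, had medians of -0.01 and -0.04, beside 0.19 and 0.29 for 2713 loci. Slc25a4 with 1925 nt, Slc25a5 with 1240 nt and Slc25a3 with 1612 nt were among the short members, and Slc25a23, Slc25a24, Slc25a25 and Slc25a44 with 3362 to 3577 nt among the longer.

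To remove the trend, the running median of loci of similar length was subtracted. The median of the members was then -0.02 in EtOH affected against control and -0.04 against EtOH unaffected, with 21 and 22 of 37 members below 0. In EtOH unaffected against control the median fell from 0.05 to 0.006, with 17 of 37 members below 0. After removal Slc25a5 was at 0.00 against control and 0.01 against EtOH unaffected, Slc25a3 at -0.01 and -0.04, and Slc25a4 at -0.14 and -0.12. Slc25a18 kept most of its difference, at -0.84 and -0.71, and Slc25a14 was at -0.31 and -0.23, within the limit. Slc25a53 stayed past the limit against EtOH unaffected at -0.39, Slc25a24 at 0.43, and Slc25a37 reached it at -0.40, whereas Slc25a33 was at -0.35, Slc25a20 at -0.25 and Slc25a38 at -0.21. The long members Slc25a12 and Slc25a36 were lower than before, at -0.18 and -0.35 against control and -0.30 and -0.36 against EtOH unaffected. The part of transcript length in these differences was not tested further.

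**Figure D4:**
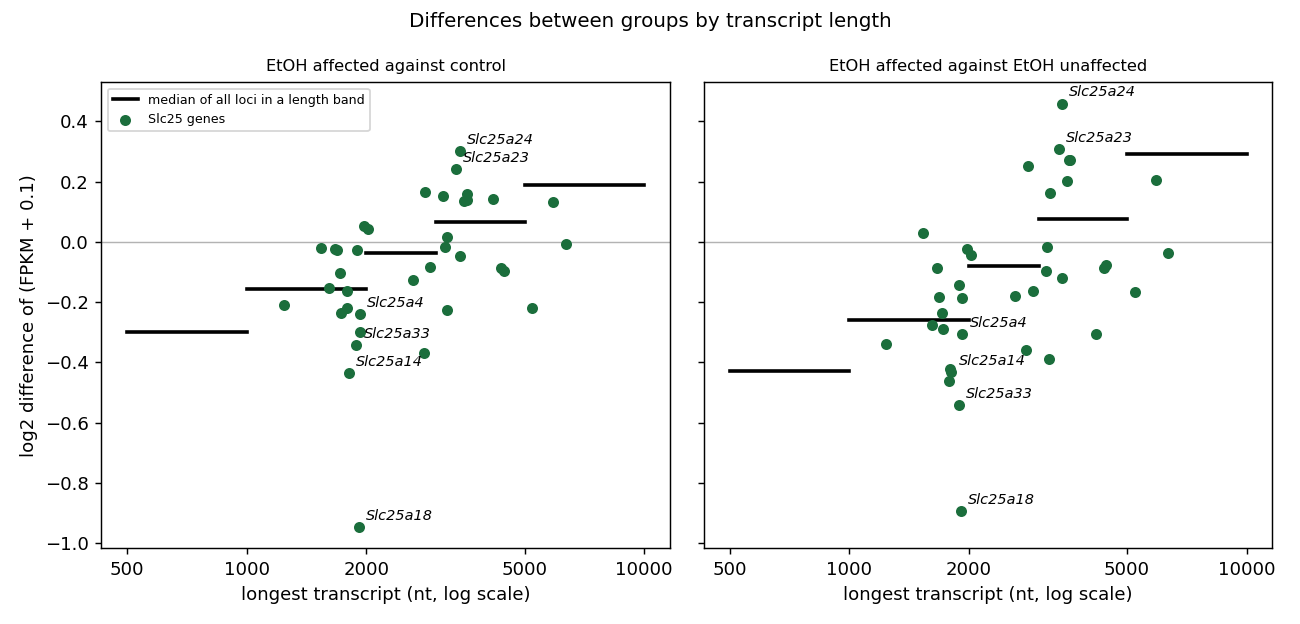
Log2 differences of (FPKM + 0.1) of the 37 Slc25 genes (points) against the length of the longest coding transcript (log scale), with bars for the median of all loci in a length band; the outer bars hold loci below 1000 nt and of 5000 nt or more. The bars rise from -0.30 to 0.19 against control and from -0.43 to 0.29 against EtOH unaffected, and Slc25a18 lies far below its bar.

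Genes that work beside the carriers were taken from lists written with earlier results of these data known. The 9 genes of carrier import, the small chaperones of the intermembrane space with the insertion complex and its outer receptor, were all below 0 in both comparisons of EtOH affected. Their median was -0.35 against control, where 3 of 9 (33.3%) were lower by the limit, and -0.47 against EtOH unaffected, where 6 of 9 (66.7%) were, beside 8.33% and 14.3% of all loci. Timm8b, a small chaperone, was at 266 FPKM in control, 293 in EtOH unaffected and 183 in EtOH affected, and Timm10, another, at 53.0, 54.4 and 36.6 FPKM. Timm22, the channel that inserts carriers, was at 11.7, 13.5 and 10.03 FPKM, and Tomm70a, the receptor for carriers on the outer membrane, at 56.4, 56.1 and 51.9 FPKM. After removal of the length trend the medians of the 9 genes were -0.22 and -0.24, and 1 of 9 was lower by the limit against control (Timm10b) and 3 of 9 against EtOH unaffected (Timm9, Timm10b and Timm22). Timm8b was then at -0.23 and -0.24 and Timm10 at -0.20 and -0.10, all within the limit. The share of all loci past the limit after this removal is not given here.

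Of 12 other genes of membrane transport, 2 (16.7%) were lower by the limit against control and 3 (25%) against EtOH unaffected, beside 8.33% and 14.3% of all loci. None was higher, beside 8.57% and 16.3%. The 2 were Mpc1 and Mpc2, which form the mitochondrial pyruvate carrier outside the Slc25 family. Mpc1 was at 124, 127 and 90.8 FPKM and Mpc2 at 89.5, 94.7 and 66.7 FPKM, with differences of -0.44 and -0.42 against control and -0.48 and -0.50 against EtOH unaffected. Both are short genes, and with the length trend removed Mpc1 was at -0.17 and -0.06 and Mpc2 at -0.16 and -0.09, within the limit. Sfxn4, of the sideroflexin family, was the additional gene against EtOH unaffected, at 2.76 FPKM in EtOH unaffected and 1.94 in EtOH affected, a difference of -0.48 that was -0.17 without the length trend. The porins Vdac1, whose locus is joined with 9530068E07Rik, and Vdac2 were at 251, 249 and 251 FPKM and at 100.4, 99.3 and 99.8 FPKM, nearly equal in the 3 groups, and the porin Vdac3 was at 189, 196 and 161 FPKM (-0.23 against control and -0.28 against EtOH unaffected, and -0.07 and -0.01 with the length trend removed, where Vdac1 was at 0.05 and 0.10 and Vdac2 at 0.09 and 0.18). Among family genes under other names, the outer membrane proteins Mtch1 and Mtch2 were at 267, 283 and 255 FPKM and at 66.6, 72.3 and 53.6 FPKM, and the uncoupling protein Ucp2 at 6.40, 6.56 and 7.45 FPKM. Mtch2 was lower against EtOH unaffected by the limit (-0.43), but not with the length trend removed (-0.35). The 4 enzymes of the malate-aspartate shuttle had medians of -0.02 and -0.10, and none passed the limit in any comparison. None of the 6 creatine kinases and adenylate kinases above 1 FPKM passed it either. Beside 8.33% and 14.3% of all loci lower in the comparisons of EtOH affected, lists this short can hold none without differing from all loci. Ckb, the brain creatine kinase, was at 365, 400.4 and 380 FPKM, and the mitochondrial creatine kinase Ckmt1 at 18.2, 15.0 and 16.4 FPKM.

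**Figure D5:**
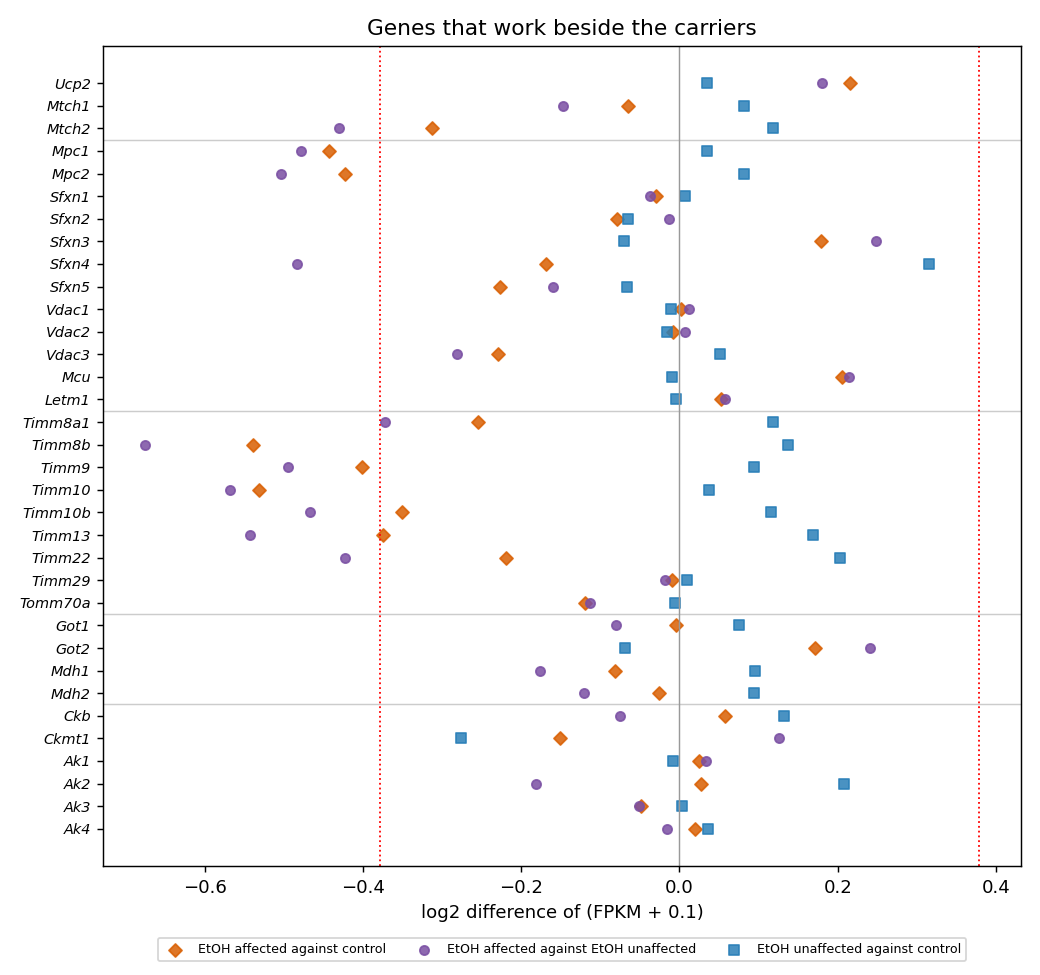
Log2 differences of (FPKM + 0.1) of genes that work beside the carriers (1 row per gene, lists separated by grey lines), with diamonds for EtOH affected against control, circles for EtOH affected against EtOH unaffected and squares for EtOH unaffected against control; dotted lines mark the 1.3-fold limits. The import genes Timm8b to Timm22 and the pyruvate carrier genes Mpc1 and Mpc2 lie at the left.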

How the data were processed

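Total RNA of 9 fetuses was sequenced as paired 50-base reads from TruSeq libraries, which are not stranded. Per the methods, the authors aligned the reads to mm10, naming both STAR and Bowtie with TopHat. The submitters' processing notes name Bowtie2 2.2.4.0, Cufflinks and Cuffdiff. The FPKM in the deposited table are the authors' values, 1 per group and locus, taken over the 3 fetuses of a group. It has 0 columns for single fetuses. The table also holds the authors' fold changes, test statistics, p-values and q-values of the 3 comparisons, which were not used.

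From the FPKM, log2((FPKM + 0.1)/(FPKM + 0.1)) was computed for each locus with Python 3.11.15, pandas 2.3.3 and NumPy 2.4.6, and figures were drawn with Matplotlib 3.10.9. Loci marked as failed or too deep by the authors' software were left out, 18 of 27095, none of them a member. Of the others, 15535 had a mean FPKM over the 3 groups of at least 1. A limit of 1.3-fold gave the counts, without a test. Values are given for every member at or above a mean FPKM of 10 or past the limit, and for others by role. A single member under this rule is counted but not reported by name. The members, role groups, gene lists, limit and alternatives were chosen with earlier results of these data known. The fold and the removal of the length trend were tested on simulated data. Alternatives were other FPKM minimums, pseudocounts and fold limits, centring, the omission of joined loci, and, added after the data were seen, the removal of a length trend and centring on loci with an FPKM of at least 10. Sequences shared with other genes were counted as 50-base stretches of GENCODE M21 transcripts. Spans are GENCODE M21 genes (GRCm38, the assembly of mm10).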

Additional observations from a re-analysis of the deposited data

How the results depend on the processing

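No paired analysis was possible because the deposited table holds 1 value per group, and for the same reason no fetus could be left out in turn. The medians of the members kept their sign under every alternative run, and 75 of 93 values stayed within 1.5 times the count or 0.05 of the median reported. The other 18 follow, and the cause of their shift was not tested. At a limit of 1.2-fold, the lower members numbered 5 against control and 12 against EtOH unaffected, and the higher ones 1 and 4. At 1.5-fold, 1 member (Slc25a18) was lower in each comparison of EtOH affected, and 0 were higher against EtOH unaffected and 0 in EtOH unaffected against control. With a minimum mean FPKM of 5, 1 member was lower against control, and 0 were higher against EtOH unaffected or in EtOH unaffected against control, where fewer members enter. A pseudocount of 1 likewise left 0 higher in those comparisons. With no minimum, Slc25a35 and Slc25a43 were added, for 2 higher against control and 3 against EtOH unaffected. With the length trend removed, 1 member was lower against control and 3 against EtOH unaffected, where the median became -0.038. The shares of all loci past the limit under these alternatives are not given here, so the counts cannot be set beside them. With 1 value per group and unknown depth, low members such as Slc25a18, Slc25a24 and Slc25a37 are the least precisely measured.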
